A study of Homo sapiens with 29 samples.

Results

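The knockdown of ZNF148 was examined at 96 h in differentiation media (DIFF media). Its members were chosen by their titles alone and are 6 of the 29 samples of the series, 3 labelled siZNF148 and 3 labelled siControl. LHCN-M2 cells are human skeletal muscle myoblasts, precursor cells of muscle fibres, that were immortalized with telomerase and CDK4 and that fuse into myotubes when serum and growth factors are withdrawn. The siZNF148 samples received small interfering RNA (siRNA) against ZNF148 at 20 nM, the siControl samples a nontargeting siRNA at the same concentration, and both were moved from growth media to DIFF media, which is depleted of serum and growth factors. Total RNA of each sample was hybridised to its own one-colour Agilent array, which reports 1 signal for each of 58201 probes. The labels do not say whether the hours were counted from transfection or from the change of media. The study's methods speak of hours in either media, and of a change of media days after transfection in differentiation experiments. A time in DIFF media and the same time in growth media may therefore not be equally long after transfection. The labels also do not say that the 3 samples of a group were separate cultures started on separate days. The p-values therefore measure the spread between samples of the same group, which may be technical. The line is a single immortalized line that carries extra CDK4, a kinase that drives the cell cycle, and the sources do not say whether a single siRNA or a pool was put on these samples, so effects of the siRNA on other transcripts cannot be told apart from those of ZNF148.

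ZNF148, also called ZBP-89, is a zinc finger transcription factor that binds GC-rich promoter sequences and can activate or repress its targets. During myogenesis the factors MYF5 and MYOD1 commit cells to the muscle lineage, MYOG and MYF6 act in terminal differentiation, and MEF2 factors cooperate with them to switch on sarcomere genes. Differentiating myoblasts also leave the cell cycle, fuse, and replace non-muscle contractile proteins with those of the sarcomere.

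On the 6 arrays between 45.4% and 52.1% of probes were well above background by the scanner's own test. After quantile normalization the log2 signals of all probes correlated at 0.989 to 0.991 within the siControl arrays, 0.982 to 0.987 within the siZNF148 arrays and 0.911 to 0.925 between the groups. The arrays lay on 3 slides. Slide 1 held siControl replicate 3 and siZNF148 replicate 2, slide 2 held siControl replicates 1 and 2 and siZNF148 replicate 3, and slide 3 held siZNF148 replicate 1 alone among these 6. One siControl array, replicate 3, had higher signals than the others for several muscle genes that were low in the controls, and changes that leaving out this or another array moved by over 1.5-fold are given with and without it.

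ZNF148 itself was lower in every siZNF148 array. Its log2 signals were 9.83, 9.79 and 9.70 on the siControl arrays and 7.05, 6.87 and 7.19 on the siZNF148 arrays. The groups did not overlap, and in log2 units the level fell by 2.74 (SE 0.102, adjusted p = 8.69e-11). Here and below the adjusted p is that of limma's moderated test with Benjamini-Hochberg adjustment over all tested probes, n = 3 arrays per group. Each SE and p used a spread pooled over 17 arrays in 6 groups. These include the groups at 48 h in DIFF media and 96 h in growth media. A gene is said to have risen or fallen only where the adjusted p was below 0.05 and the change was over 2-fold. Within slide 1 and within slide 2 the siZNF148 array was below its siControl arrays for the same gene. The array thus reads the labelled target as reduced in all 3 siZNF148 samples.

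Of 15495 genes with a probe well above background on at least 3 of the 6 arrays, 1719 (11.1%) were called higher and 2162 (14.0%) were called lower after the knockdown. Counted by probe, 2956 of 28437 (10.4%) were higher and 3760 (13.2%) lower. The median change of all genes was -0.08 on the log2 scale, and the 24 ribosomal protein genes, a set used by every cell, had a median of -0.15 with none called. Of the called genes 2902 were above background on all 6 arrays, 207 only on the siZNF148 arrays and 271 only on the siControl arrays. With the slide as a block in the fit 1713 genes were higher and 2191 lower. In bulk RNA fewer cells of a type and less RNA per cell cannot be told apart, which holds for every gene and list below.

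**Figure D1:**
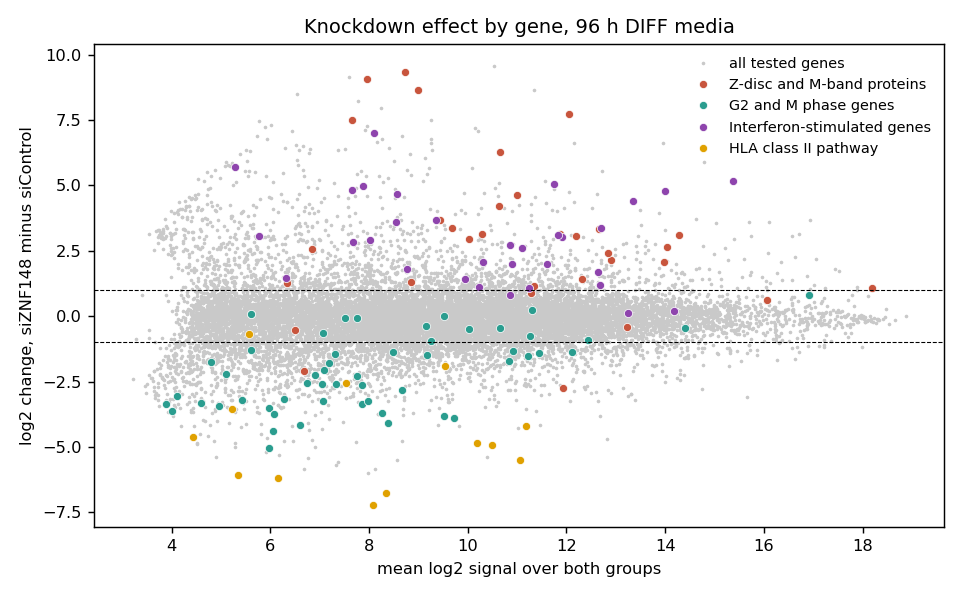
Each point is 1 of 15495 tested genes, with the mean log2 signal over the 6 arrays on the horizontal axis and the log2 change, siZNF148 minus siControl, on the vertical axis. Genes of 4 lists are coloured and dashed lines mark 2-fold: most Z-disc and M-band genes (26 of 33 called higher) and interferon-stimulated genes (29 of 32) lie above the upper line, and most G2 and M phase genes (39 of 53 called lower) and HLA class II genes (12 of 13) below the lower one.

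Among the 4 myogenic regulatory factors only MYF6 passed both thresholds. MYF6, a factor of late differentiation, had log2 signals of 11.73, 11.85 and 11.78 on the siControl arrays and 14.02, 14.08 and 14.02 on the siZNF148 arrays. It rose by 2.25 (SE 0.056, adjusted p = 2.9e-12) with no overlap between the groups. MYOG, which starts terminal differentiation, gave 10.38, 10.33 and 10.57 with siControl and 11.30, 11.65 and 11.24 with siZNF148. Its change of 0.96 (SE 0.304, adjusted p = 0.0135) lay just under 2-fold, and it passed 2-fold without siControl replicate 3 (1.035), siZNF148 replicate 1 (1.012) or siZNF148 replicate 3 (1.043). MYOD1, the commitment factor, changed by -0.28 (SE 0.0513, adjusted p = 0.000345), less than 2-fold, and it was 0.018 under 75th percentile scaling. MYF5 changed by 0.12 (SE 0.271, adjusted p = 0.712) with overlapping groups.

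The MEF2 factors moved in both directions. MEF2C, which drives sarcomere genes in myotubes, had log2 signals of 13.13, 13.25 and 13.28 on the siControl arrays and 15.22, 15.18 and 15.22 on the siZNF148 arrays and rose by 1.99 (SE 0.156, adjusted p = 1.07e-07). MEF2B gave 9.86, 9.89 and 9.86 with siControl and 8.58, 8.58 and 8.77 with siZNF148 and fell by 1.22 (SE 0.0849, adjusted p = 3.22e-08). For both genes every siZNF148 array lay outside the siControl range. MEF2A changed by -0.42 (SE 0.11, adjusted p = 0.00405) and MEF2D by -0.36 (SE 0.0764, adjusted p = 0.000967), neither of them over 2-fold.

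**Figure D2:**
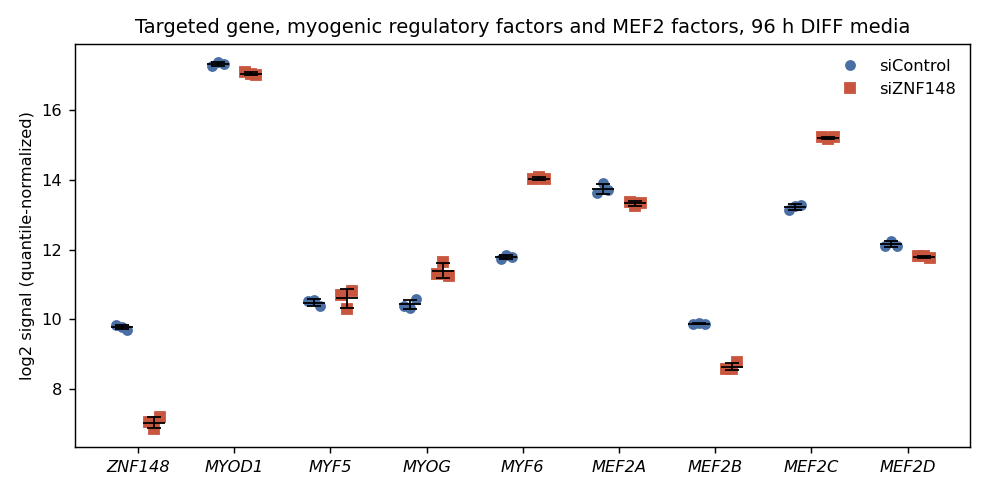
Log2 signal of ZNF148, the myogenic regulatory factors and the MEF2 factors on each of the 6 arrays at 96 h in DIFF media, with siControl and siZNF148 arrays as separate points and bars for the group mean with its SD (n = 3 arrays per group). ZNF148 and MEF2B were lower on all siZNF148 arrays, MYF6 and MEF2C were higher, and the groups overlapped for MYF5.

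Genes of muscle progenitors and of the pathways that hold back differentiation were mixed. Of 16 tested progenitor factors 5 rose and 3 fell (median 0.23), beside 11.1% and 14.0% of all genes called higher and lower. SIX2, a homeobox factor, rose by 1.60 (SE 0.117, adjusted p = 5.53e-08), and TCF12, an E protein that pairs with the myogenic factors, fell by 1.46 (SE 0.112, adjusted p = 8.11e-08). PAX7, the satellite cell factor, was near background. Its brightest probe was above background on 3 siControl arrays and 1 siZNF148 array and fell by 2.87 (SE 0.603, adjusted p = 0.000941), while its other tested probe changed by 0.98 and was not called, so the probes disagree.

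In the list of ID genes and myostatin signaling 6 of 21 tested genes rose and 4 fell, beside 11.1% and 14.0% of all genes. ID1, an inhibitor of the myogenic factors that binds their E protein partners, had log2 signals of 10.39, 10.38 and 10.20 on the siControl arrays and 7.84, 7.61 and 7.80 on the siZNF148 arrays and fell by 2.57 (SE 0.0932, adjusted p = 6.51e-11). TGFBR2, a receptor for TGF-beta, fell by 2.99 (SE 0.118, adjusted p = 1.35e-10). The activin receptor gene ACVR2B rose by 2.48 (SE 0.142, adjusted p = 4.89e-09) and FSTL3, a secreted antagonist of activin and myostatin, by 2.77 (SE 0.085, adjusted p = 1.54e-11). The ligand antagonist and the ligand receptor therefore both lay higher, and the type II TGF-beta receptor lower.

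Notch signaling keeps progenitor cells undifferentiated. Of 16 tested genes of this pathway 2 rose, near the 11.1% of all genes that did, and 5 fell, where 14.0% did. Their median was -0.47. NRARP, a feedback inhibitor of Notch, rose by 3.46 (SE 0.315, adjusted p = 4.67e-07), and DLL1, a ligand, fell by 2.22 (SE 0.103, adjusted p = 6.24e-10). LFNG, a glycosyltransferase of Notch, and NOTCH2, a receptor, were called by their brightest probes at 2.91 and -1.79, but the other tested probes gave 0.45 and 0.00 and were not called. Of 15 genes of the IGF system 3 rose and 2 fell, counts from which nothing is read beside 11.1% and 14.0% of all genes called higher and lower. IGFBP5 rose by 1.99 (SE 0.318, adjusted p = 9.96e-05), IGFBP2 by 1.5 (SE 0.103, adjusted p = 3.06e-08), a call lost with normexp background correction (a model of each array's raw spot and background signals in place of the scanner's processed signal), and the insulin receptor INSR by 1.36 (SE 0.0676, adjusted p = 1.21e-09). Here and below that correction also added 50 to every signal, a setting that makes the log2 changes of dim probes smaller. The binding proteins IGFBP4 and IGFBP6 fell by 2.58 (SE 0.116, adjusted p = 4.73e-10) and 2.09 (SE 0.0945, adjusted p = 4.81e-10).

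Of 15 genes for ZNF148 and other factors of GC-rich sites, 1 rose and 4 fell, ZNF148 included. KLF5 rose by 2.64 (SE 0.124, adjusted p = 6.63e-10). KLF10 fell by 2.18 (SE 0.143, adjusted p = 1.86e-08), VEZF1 by 1.82 (SE 0.21, adjusted p = 4.96e-06) and PATZ1, above background on 3 siControl and 2 siZNF148 arrays, by 1.37 (SE 0.192, adjusted p = 2.96e-05), a call lost with normexp correction. Among 9 genes described as targets of ZNF148 2 rose and 2 fell. CDKN1A, an inhibitor of cyclin-dependent kinases, gave 10.17, 9.80 and 10.50 with siControl and 11.76, 11.92 and 11.70 with siZNF148 and rose by 1.64 (SE 0.178, adjusted p = 2.71e-06). ENO3, the muscle enolase, rose by 3.05 (SE 0.158, adjusted p = 1.8e-09), MMP3, a matrix metalloproteinase, fell by 4.03 (SE 0.142, adjusted p = 5.19e-11) and COL1A2, a chain of type I collagen, by 1.22 (SE 0.0704, adjusted p = 5.3e-09), or -0.962 and not called with 75th percentile scaling. The shares of called members in these lists, 5 of 15 and 4 of 9, stand beside 11.1% and 14.0% of all genes called higher and lower.

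Sarcomere genes were higher in the knockdown, in each of the 5 lists of contractile and Z-disc proteins. The Z-disc and M-band proteins, which anchor thin and thick filaments, rose in 26 of 33 tested genes and fell in 2, with a median of 2.66, or 2.52 within slide 1 and 2.72 within slide 2. Troponins and tropomyosins, which place calcium control on the thin filament, rose in 10 of 12 with a median of 1.88, and none fell. Myosin heavy chains rose in 7 of 10 (1 fell, median 3.04), myosin light chains and their kinases in 10 of 15 (1 fell, median 1.73), and actins and thin filament proteins in 9 of 14 (1 fell, median 1.88). Over probes above background on all 6 arrays the counts of higher genes were 22 of 29, 10 of 12, 5 of 8, 9 of 13 and 7 of 12.

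MYH3, the embryonic myosin heavy chain, had log2 signals of 15.00, 15.18 and 15.27 on the siControl arrays and 18.23, 18.36 and 18.27 on the siZNF148 arrays and rose by 3.13 (SE 0.345, adjusted p = 2.99e-06). TNNC2, the calcium-binding troponin of fast fibres, gave 14.85, 15.04 and 15.43 with siControl and 18.79, 18.79 and 18.73 with siZNF148, a rise of 3.67 (SE 0.219, adjusted p = 7.22e-09), and TNNT3, the troponin that binds tropomyosin in fast fibres, rose by 3.58 (SE 0.207, adjusted p = 5.3e-09). In each of these genes the lowest siZNF148 array lay above the highest siControl array. XIRP2, a protein of the actin filaments at muscle attachment sites, rose by 6.44 (SE 0.166, adjusted p = 3.94e-12), and MYH7B, a myosin of slow muscle and heart, by 6.26 (SE 0.195, adjusted p = 1.71e-11).

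Some sarcomere genes were near background in siControl. MYBPC1, the slow myosin-binding protein C, gave 2.43, 3.18 and 6.55 with siControl and 13.34, 13.37 and 13.44 with siZNF148, with 1 of 3 siControl arrays above background, and rose by 9.33 (SE 0.716, adjusted p = 8.78e-08), or by 10.58 without siControl replicate 3 and 8.52 without replicate 1. MYOZ1, a Z-disc protein of fast fibres, gave 2.18, 2.46 and 5.66 with siControl and 12.38, 12.65 and 12.44 with siZNF148, again with 1 siControl array above background, and rose by 9.06 (SE 0.641, adjusted p = 3.89e-08), or by 10.17 without siControl replicate 3 and 8.43 without replicate 1. MYL3, a light chain of slow fibres, and MYH6, a heavy chain best known from heart, rose by 8.22 (SE 0.485, adjusted p = 6.6e-09) and 6.49 (SE 0.392, adjusted p = 8.24e-09), each with 1 siControl array above background, and MYL3 by 9.01 without siControl replicate 3. MYL1, the light chain of fast fibres, rose by 6.62 (SE 0.303, adjusted p = 1.6e-09). The size of such changes rests on the low control signals, and siControl replicate 3 held the highest of them. Probes for MYH6 and MYH7 may share target sequence, and values for either are uncertain in that respect.

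A few genes of the contractile lists fell. ACTG1, the cytoplasmic gamma actin, had log2 signals of 15.26, 15.25 and 15.28 on the siControl arrays and 14.03, 14.11 and 14.004 on the siZNF148 arrays and fell by 1.22 (SE 0.0688, adjusted p = 4.34e-09). MYH10, a non-muscle myosin, fell by 1.05 (SE 0.227, adjusted p = 0.00115), and its change was under 2-fold without siControl replicate 1 (-0.98), siZNF148 replicate 2 (-0.83) or siZNF148 replicate 3 (-0.94), with 75th percentile scaling and with normexp correction. MYLK, the kinase of smooth muscle and non-muscle light chains, fell by 2.59 (SE 0.0958, adjusted p = 7.73e-11). SYNPO2, an actin-bundling Z-disc protein, fell by 2.10 (SE 0.145, adjusted p = 3.2e-08). ANKRD2, a stretch-responsive ankyrin repeat protein of the sarcomere, gave 13.26, 13.21 and 13.43 with siControl and 10.51, 10.59 and 10.61 with siZNF148 and fell by 2.73 (SE 0.284, adjusted p = 1.76e-06), against changes of 3.24 at 48 h in DIFF media and 3.40 at 96 h in growth media.

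The genes that couple excitation to contraction moved with the sarcomere: 19 of 26 tested rose, 1 fell and the median was 1.95. SRL, a calcium-binding protein of the sarcoplasmic reticulum, had log2 signals of 8.14, 8.76 and 9.62 on the siControl arrays and 15.44, 15.43 and 15.50 on the siZNF148 arrays and rose by 6.61 (SE 0.276, adjusted p = 2.24e-10). SLN, sarcolipin, an inhibitor of the calcium pump, gave 4.01, 4.62 and 8.63 with siControl and 15.38, 15.29 and 15.29 with siZNF148 and rose by 9.57 (SE 0.819, adjusted p = 2.57e-07), and 2 of 3 siControl arrays were above background. Without siControl replicate 3 the change was 11.004, and without replicate 1 it was 8.70. RYR1, the calcium release channel, named after its values were seen, rose by 1.82 (SE 0.197, adjusted p = 2.55e-06). The 1 gene of the list that fell was SCN4A, the sodium channel of the muscle membrane, by 1.13 (SE 0.157, adjusted p = 2.6e-05), a call lost with normexp background correction.

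At the neuromuscular synapse, beside 11.1% and 14.0% of all genes, 4 of 13 genes rose and none fell, with a median of 0.69. They were ACHE, acetylcholinesterase, at 2.00 (SE 0.136, adjusted p = 2.58e-08), its collagen anchor COLQ at 1.43 (SE 0.171, adjusted p = 6.76e-06), a call lost with normexp correction, the agrin receptor LRP4 at 1.52 (SE 0.11, adjusted p = 5.17e-08) and the neuregulin receptor ERBB3 at 1.10 (SE 0.116, adjusted p = 1.95e-06), which was not called in the fit of all 29 arrays (adjusted p = 0.133). In the dystrophin-glycoprotein complex, which links the cytoskeleton to the matrix, 3 of 16 rose and 1 fell, again read as no result beside 11.1% and 14.0% of all genes called. DMD, dystrophin, gave 8.36, 8.59 and 8.39 with siControl and 10.69, 10.43 and 10.54 with siZNF148 and rose by 2.11 (SE 0.127, adjusted p = 8.25e-09), whereas the syntrophin SNTB2 fell by 1.99 (SE 0.152, adjusted p = 8.5e-08).

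Adhesion and fusion genes were split, 6 of 20 tested rising and 6 falling, beside 11.1% and 14.0% of all genes. Their median was 0.28. NCAM1, a neural cell adhesion molecule that rises in myotubes, rose by 2.20 (SE 0.178, adjusted p = 1.51e-07), with 2 of its 3 tested probes called, and STAB2, a scavenger receptor, by 2.87 (SE 0.202, adjusted p = 3.65e-08). KIRREL1, an immunoglobulin adhesion protein, fell by 1.35 (SE 0.0977, adjusted p = 4.74e-08). BOC, a promyogenic cell surface receptor, was not well above background on any siZNF148 array and was at least 5.71-fold lower (adjusted p = 2.51e-05). A bound of this kind sets the mean of the bright group against the higher of the dim probe's own signal and the lowest signal measured above background on each array.

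Creatine, glycogen and glycolysis enzymes rose in 14 of 28 tested genes and fell in 1, with a median of 0.94. CKM, the muscle creatine kinase, had log2 signals of 14.09, 14.33 and 14.48 on the siControl arrays and 17.90, 17.93 and 17.90 on the siZNF148 arrays and rose by 3.61 (SE 0.303, adjusted p = 2.18e-07). CKMT2, its sarcomeric mitochondrial form, was above background on 2 siControl arrays and rose by 7.27 (SE 0.673, adjusted p = 5.59e-07), or by 8.16 without siControl replicate 3 and 6.13 without replicate 2. PYGM, the muscle glycogen phosphorylase, rose by 6.19 (SE 0.288, adjusted p = 6.36e-10), and GBE1, the glycogen branching enzyme, fell by 1.17 (SE 0.0828, adjusted p = 3.97e-08). Of 25 genes of the respiratory chain and mitochondria 4 rose and none fell, where 11.1% of all genes rose. They were the muscle forms COX6A2 (3.95, adjusted p = 1.22e-09), SLC25A4 (2.07, adjusted p = 5.6e-08) and CPT1B (1.43, adjusted p = 1.09e-07, not called with normexp correction) and the fatty acid carrier FABP3 (4.14, adjusted p = 5.4e-12).

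The promoter of CKM is shown because the gene is a classical target of the myogenic factors, which bind E-boxes. The 250 bases before its start are chr19:45322876-45323125 (minus strand) in GRCh38.p14, from RefSeq's table, written 5′ to 3′ on the gene's strand, and the capitals mark the E-box letters CAGCTG, which read the same on both strands. The letters occur in 17.7% of the 27305 promoters of that table, each 300 bases long. A share for the Z-disc list is not given, since 26 of its 33 tested genes, under 80%, were in the table.
CKM: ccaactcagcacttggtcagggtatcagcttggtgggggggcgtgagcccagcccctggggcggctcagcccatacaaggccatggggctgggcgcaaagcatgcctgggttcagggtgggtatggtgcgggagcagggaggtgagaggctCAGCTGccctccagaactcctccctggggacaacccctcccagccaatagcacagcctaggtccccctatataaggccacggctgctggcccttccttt

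**Figure D3:**
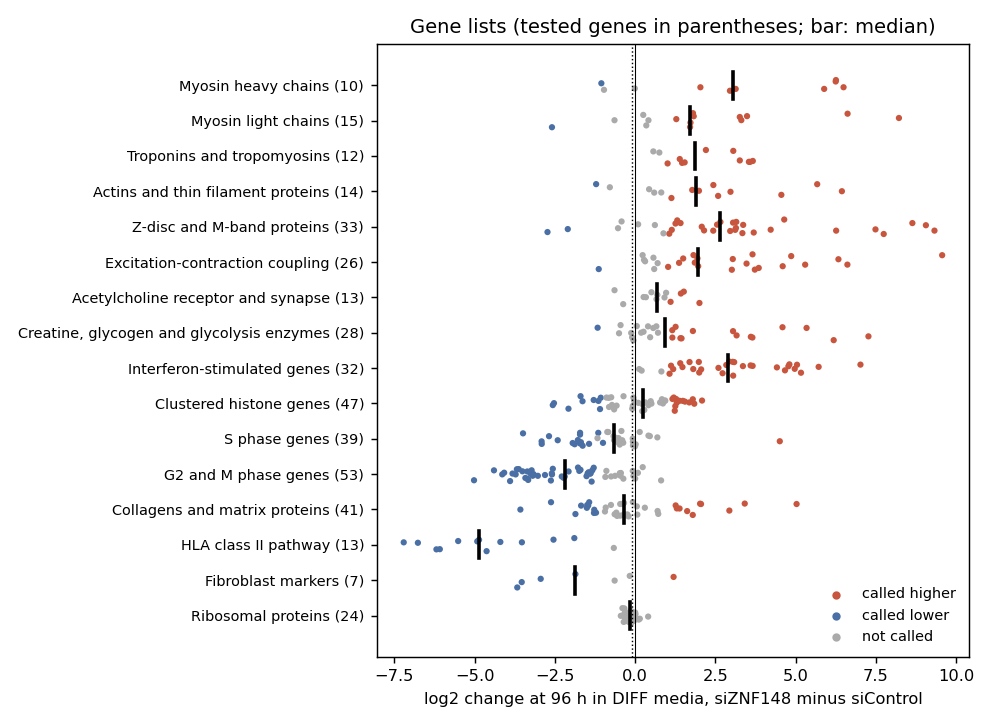
Log2 change of each tested gene (siZNF148 minus siControl at 96 h in DIFF media) in the gene lists, 1 row per list, with called genes coloured and the list's median as a bar. Sarcomere lists and interferon-stimulated genes lie to the right of 0, and G2 and M phase genes and the HLA class II pathway to the left.

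The largest rises among genes above background on all 6 arrays included secreted and signaling proteins beside the muscle LIM protein. A2M, alpha-2-macroglobulin, a protease inhibitor of plasma, gave 5.70, 6.06 and 9.33 with siControl and 15.75, 15.48 and 15.75 with siZNF148 and rose by 8.63 (SE 0.702, adjusted p = 1.56e-07). CSRP3, the muscle LIM protein, gave 7.32, 7.66 and 9.58 with siControl and 15.96, 15.87 and 15.97 with siZNF148 and rose by 7.75 (SE 0.423, adjusted p = 3.03e-09). In both genes siControl replicate 3 was well above the other siControl arrays, and without it the changes were 9.78 and 8.44. Without siControl replicate 1 that of A2M was 7.97. DLK1, a Notch-related membrane protein of embryonic muscle, rose by 7.09 (SE 0.374, adjusted p = 2.14e-09), and its other probe gave 4.501.

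DPYSL5, a protein of growing axons, rose by 7.51 (SE 0.249, adjusted p = 2.91e-11) by its brightest probe, and the lowest change among its other probes was 2.59. RASGRP2, an activator of RAP1, rose by 7.18 (SE 0.281, adjusted p = 1.27e-10), HS6ST2, a heparan sulfate sulfotransferase, by 6.88 (SE 0.229, adjusted p = 3e-11) and IGSF22, an immunoglobulin superfamily protein, by 6.77 (SE 0.213, adjusted p = 1.83e-11). The remaining one of the 8 largest, BST2, belongs to the interferon-stimulated genes below.

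The largest falls in such genes were led by the pancreatic elastases. CELA2A had log2 signals of 11.02, 11.002 and 10.94 on the siControl arrays and 4.77, 5.19 and 5.00 on the siZNF148 arrays and fell by 6.00 (SE 0.141, adjusted p = 2.12e-12). CELA2B fell by 5.85 (SE 0.265, adjusted p = 4.88e-10), and since the pair are near-identical copies their probes may read the same transcripts. Complement component C3 gave 11.28, 11.40 and 11.25 with siControl and 5.75, 6.03 and 5.64 with siZNF148 and fell by 5.50 (SE 0.195, adjusted p = 5.42e-11). RASD1, a small GTPase, fell by 5.38 (SE 0.312, adjusted p = 5.48e-09) and KCND2, a voltage-gated potassium channel, by 4.80 (SE 0.0957, adjusted p = 8.9e-13). The other 3 of the 8 were HLA class II genes.

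Genes measured above background in only 1 group are given as bounds. ATP1B4, a muscle relative of the Na,K-ATPase beta subunit, gave 2.08, 2.09 and 2.68 with siControl and 10.82, 10.63 and 10.88 with siZNF148 and was at least 101-fold higher (adjusted p = 3.36e-13). TMC6, a transmembrane channel-like protein, was at least 58.2-fold higher (adjusted p = 2.12e-12), LRRN1, a leucine-rich repeat protein, 51.3-fold (adjusted p = 7.8e-12), FBP2, the muscle fructose-bisphosphatase, 49.9-fold (adjusted p = 2.25e-13) and RD3, a retinal protein, 47-fold (adjusted p = 8.84e-12), each as a lower bound. Not well above background on any siZNF148 array were the potassium channel gene KCNF1, at least 33.9-fold lower (adjusted p = 4.24e-09), the mitotic kinase gene PBK, at least 20.9-fold lower (adjusted p = 4.52e-11), and CACNG7, a calcium channel subunit gene, at least 16.7-fold lower (adjusted p = 8.64e-10).

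Genes of cell division were lower in the knockdown. G2 and M phase genes fell in 39 of 53 tested and rose in none. Their median change was -2.19, or -1.70 with the 10 genes below background in 1 group set at their bounds, against -0.08 over all genes. Since some probes passed the filter only through their siControl signal, the same count over probes above background on all 6 arrays was 23 of 37. On slide 1 alone the list's median was -2.02 and on slide 2 alone -2.33. MKI67, the proliferation antigen Ki-67, named after its values were seen, gave 8.47, 7.80 and 7.83 with siControl and 5.50, 5.81 and 5.10 with siZNF148 and fell by 2.56 (SE 0.207, adjusted p = 1.48e-07), with 2 of its 3 tested probes called. CDK1, the mitotic kinase, also named in this way, gave 7.72, 7.997 and 7.83 with siControl and 4.88, 4.15 and 5.02 with siZNF148, with 2 siZNF148 arrays above background, and fell by 3.16 (SE 0.193, adjusted p = 9.26e-09). TOP2A, topoisomerase II alpha, gave 8.19, 8.64 and 8.60 with siControl and 4.17, 3.40 and 2.80 with siZNF148. It was not well above background on any siZNF148 array and was at least 16-fold lower (adjusted p = 6.13e-09), and DLGAP5, a spindle protein, at least 14-fold lower (adjusted p = 1.45e-09).

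The promoters of these last genes are shown because genes of this class share the CHR element TTTGAA and CCAAT boxes. They are the 250 bases before the gene start in GRCh38.p14 from RefSeq, TOP2A at chr17:40417897-40418146 (minus strand) and DLGAP5 at chr14:55191586-55191835 (minus strand), each 5′ to 3′ on the strand of the gene. Capitals mark TTTGAA and CCAAT or, read from the opposite strand, TTCAAA and ATTGG.
TOP2A: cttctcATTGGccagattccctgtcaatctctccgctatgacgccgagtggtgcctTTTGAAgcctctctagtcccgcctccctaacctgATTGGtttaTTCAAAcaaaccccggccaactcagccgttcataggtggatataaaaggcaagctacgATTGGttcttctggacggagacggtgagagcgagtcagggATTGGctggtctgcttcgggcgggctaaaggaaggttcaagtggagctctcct
DLGAP5: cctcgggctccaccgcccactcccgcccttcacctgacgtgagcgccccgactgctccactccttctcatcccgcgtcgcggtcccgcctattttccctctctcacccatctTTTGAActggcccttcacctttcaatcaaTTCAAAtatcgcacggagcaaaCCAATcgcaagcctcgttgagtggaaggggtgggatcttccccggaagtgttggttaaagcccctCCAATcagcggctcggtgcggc
TTTGAA was found on either strand in 30 of the 44 G2 and M phase genes with a promoter in the table (68.2%) and in 15.4% of all 27305 promoters. CCAAT was found in 30 of the 44 (68.2%) and in 35.7% of all promoters. A match is a description of the letters in this window and not a bound site.

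S phase genes fell in 16 of 39 tested and rose in 1, with a median of -0.67. CDC45, a replication helicase factor, had log2 signals of 10.43, 10.43 and 10.39 on the siControl arrays and 7.503, 7.48 and 7.53 on the siZNF148 arrays and fell by 2.91 (SE 0.0744, adjusted p = 3.77e-12). RRM2, a subunit of ribonucleotide reductase, was at least 3.32-fold lower (adjusted p = 1.28e-07), a call lost with normexp correction, under which 9 genes of the list fell. E2F8, a repressive member of the E2F family, went the other way, with log2 signals of 6.03, 6.40 and 6.37 on the siControl arrays and 10.84, 10.66 and 10.82 on the siZNF148 arrays and a rise of 4.51 (SE 0.21, adjusted p = 6.55e-10). Of 15 E2F, FOXM1 and MYB factors 2 rose, near the 11.1% of all genes that did, and 5 fell, where 14.0% did. FOXM1, the activator of G2 and M phase genes, was at least 13.1-fold lower (adjusted p = 6.02e-09), MYBL1 fell by 2.59 (SE 0.114, adjusted p = 3.68e-10) and TFDP2, a partner of E2F factors, rose by 1.07 (SE 0.0769, adjusted p = 4.66e-08).

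The clustered histone genes, most of them expressed in S phase, rose in 13 of 47 tested and fell in 9, with a median of 0.23. Of all genes 11.1% rose and 14.0% fell. H2BC12 and H2BC8 rose by 2.08 (SE 0.248, adjusted p = 6.38e-06) and 1.84 (SE 0.185, adjusted p = 1.25e-06), while H3C2 fell by 2.57 (SE 0.112, adjusted p = 3.46e-10) and H1-5, above background on 2 siZNF148 arrays, by 2.53 (SE 0.189, adjusted p = 6.7e-08). Clustered histone genes have near-identical copies, so probes may read more than 1 of them. Of 10 CDK inhibitors and pocket proteins CDKN1A rose, as given above, and 2 fell. Nothing is read from these counts beside 11.1% and 14.0% of all genes called higher and lower. CDKN1C, the inhibitor p57 of myogenic cells, gave 17.62, 17.64 and 17.76 with siControl and 16.55, 16.54 and 16.53 with siZNF148 and fell by 1.13 (SE 0.191, adjusted p = 0.000158), a call lost with 75th percentile scaling (-0.89) and in the fit of all 29 arrays (adjusted p = 0.128). CDKN2A fell by 1.11 (SE 0.0851, adjusted p = 8.87e-08), and with 75th percentile scaling its change of -0.946 was not called either. Of 21 tested p53 targets 1, CDKN1A, rose and 6 fell, beside the same 11.1% and 14.0% of all genes. The DNA repair genes XPC and DDB2 were lowest at -1.96 (SE 0.0727, adjusted p = 7.95e-11) and -1.88 (SE 0.0721, adjusted p = 1.08e-10).

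Interferon-stimulated genes rose in 29 of 32 tested and fell in none, with a median of 2.89 (2.93 within slide 1 and 2.74 within slide 2), and in 27 of 30 over probes above background on all 6 arrays. These genes are switched on after interferon or by sensing of foreign RNA. BST2, tetherin, which holds budding virus at the membrane, had log2 signals of 4.49, 4.27 and 5.01 on the siControl arrays and 11.57, 11.70 and 11.57 on the siZNF148 arrays and rose by 7.02 (SE 0.239, adjusted p = 3.74e-11). IFIT1, which binds RNA lacking the methylated cap of host messages, gave 11.51, 11.50 and 11.83 with siControl and 16.51, 16.33 and 16.33 with siZNF148 and rose by 4.78 (SE 0.139, adjusted p = 9.96e-12). RSAD2, viperin, was not well above background on any siControl array and was at least 16.3-fold higher (adjusted p = 6.46e-12). For BST2 and IFIT1 the groups did not overlap.

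Other members of the list are named after their values were seen. ISG15, a ubiquitin-like modifier, rose by 5.17 (SE 0.162, adjusted p = 1.72e-11), the GTPase MX1 by 5.04 (SE 0.235, adjusted p = 6.36e-10) and the RNA-activated enzyme OAS1 by 4.97 (SE 0.192, adjusted p = 1.17e-10). Among the regulators, IRF7 rose by 3.36 (SE 0.0728, adjusted p = 1.26e-12) and IRF9 by 1.98 (SE 0.128, adjusted p = 1.56e-08). RIGI and IFIH1, sensors of double-stranded RNA, rose by 1.12 (SE 0.114, adjusted p = 1.39e-06) and 2.72 (SE 0.13, adjusted p = 7.74e-10). The 3 tested genes that did not pass were USP18 (0.13), STAT2 (0.20) and IFI35 (0.82).

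Promoters of IFIT1 and BST2 are shown because interferon-stimulated genes carry the interferon-stimulated response element, searched as GAAA, any 2 bases and GAAA. They are the 250 bases before the gene start in GRCh38.p14 from RefSeq, IFIT1 at chr10:89392373-89392622 (plus strand) and BST2 at chr19:17405631-17405880 (minus strand), 5′ to 3′ on the gene's strand, with the element in capitals. In IFIT1 it lies on the opposite strand and reads TTTC, 2 bases and TTTC, and in BST2 a pair of matches overlap.
IFIT1: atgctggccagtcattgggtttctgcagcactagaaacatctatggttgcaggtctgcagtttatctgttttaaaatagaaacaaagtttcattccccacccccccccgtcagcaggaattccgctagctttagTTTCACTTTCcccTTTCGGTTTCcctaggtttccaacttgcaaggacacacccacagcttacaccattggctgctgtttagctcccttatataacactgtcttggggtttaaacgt
BST2: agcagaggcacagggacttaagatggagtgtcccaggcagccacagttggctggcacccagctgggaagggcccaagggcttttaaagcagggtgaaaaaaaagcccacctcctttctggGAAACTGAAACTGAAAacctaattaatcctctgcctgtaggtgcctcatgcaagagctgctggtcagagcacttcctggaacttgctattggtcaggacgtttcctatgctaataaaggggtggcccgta
The element occurs on either strand in 3.65% of all 27305 promoters. A share for the list is not given, since 25 of its 32 tested genes, under 80%, were in the table.

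Inflammatory cytokines and chemokines went both ways: of 18 tested 5 rose and 5 fell, beside 11.1% and 14.0% of all genes. Of the 18, 11 were above background on all 6 arrays. CCL5, a chemokine that interferon pathways also induce, was above background on 2 siControl arrays, gave 1.97, 5.25 and 4.77 with siControl and 9.48, 9.48 and 9.10 with siZNF148 and rose by 5.36 (SE 0.645, adjusted p = 7.15e-06), or by 4.34 without siControl replicate 1 and 5.98 without replicate 2. CCL20 was at least 2.66-fold higher (adjusted p = 2.74e-06). CXCL6 and IL1B were not well above background on any siZNF148 array and were at least 2.19-fold (adjusted p = 4.62e-05) and 2.81-fold (adjusted p = 5.47e-05) lower. The calls of CCL20, CXCL6 and IL1B were lost with normexp correction, under which 2 genes of the list rose and 2 fell.

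The HLA class II pathway, which presents peptides from outside the cell, fell in 12 of 13 genes. Its median change was -4.86, or -4.20 with 3 genes set at their bounds, and all 6 genes above background on all 6 arrays fell. Within slide 1 and slide 2 the median was -4.64 and -4.83. HLA-DRA, the shared alpha chain of HLA-DR, had log2 signals of 11.69, 11.72 and 11.67 on the siControl arrays and 4.64, 4.17 and 4.63 on the siZNF148 arrays, with 1 siZNF148 array above background, and fell by 7.21 (SE 0.188, adjusted p = 4.42e-12). HLA-DPA1 and HLA-DPB1, the chains of HLA-DP, gave 13.79, 13.80 and 13.84 with siControl and 8.26, 8.24 and 8.39 with siZNF148, and 12.98, 12.96 and 12.92 with siControl and 8.01, 8.28 and 7.81 with siZNF148. They fell by 5.51 (SE 0.116, adjusted p = 1.11e-12) and 4.92 (SE 0.139, adjusted p = 7.8e-12). HLA-DOA, a chain of the modulator HLA-DO, was above background on 2 siZNF148 arrays and fell by 6.77 (SE 0.214, adjusted p = 1.87e-11). HLA-DRB5 fell by 4.86 (SE 0.135, adjusted p = 6.68e-12), and its probe may also read other HLA-DRB genes. HLA-DMB, a chain of the peptide loader HLA-DM, was at least 27.8-fold lower (adjusted p = 1.91e-09).

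CIITA, the coactivator on which class II transcription depends, named after its values were seen, gave 6.93, 7.004 and 7.03 with siControl and 2.08, 5.54 and 2.75 with siZNF148, with 1 siZNF148 array above background, and fell by 3.53 (SE 0.686, adjusted p = 0.00051). Its change was -4.57 without siZNF148 replicate 2 and -2.84 without replicate 1, and it was not called by the methods' t-test after adjustment. CD74, the invariant chain, named in the same way, was at least 4.92-fold lower (adjusted p = 3.31e-08). HLA-DOB was not called, at -0.66 (SE 0.212, adjusted p = 0.0146). The class II genes thus moved opposite to the interferon-stimulated genes on the same 6 arrays.

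The promoter of HLA-DPB1 is shown because class II promoters carry a Y box, whose core is a CCAAT box. It is chr6:33075740-33075989 (plus strand) in GRCh38.p14 from RefSeq, 250 bases 5′ to 3′, with CCAAT or, from the opposite strand, ATTGG in capitals.
HLA-DPB1: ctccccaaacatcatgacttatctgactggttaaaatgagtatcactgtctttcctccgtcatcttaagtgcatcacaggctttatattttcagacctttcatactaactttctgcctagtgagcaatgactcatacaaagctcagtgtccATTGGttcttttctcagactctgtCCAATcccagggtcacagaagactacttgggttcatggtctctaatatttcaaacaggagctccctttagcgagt
CCAAT was present in 10 of the 11 class II genes with a promoter in the table (90.9%) and in 35.7% of all promoters. In windows of 250 bases searched in the same way, HLA-DOA and HLA-DMB held a match and HLA-DPA1 held none.

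**Figure D4:**
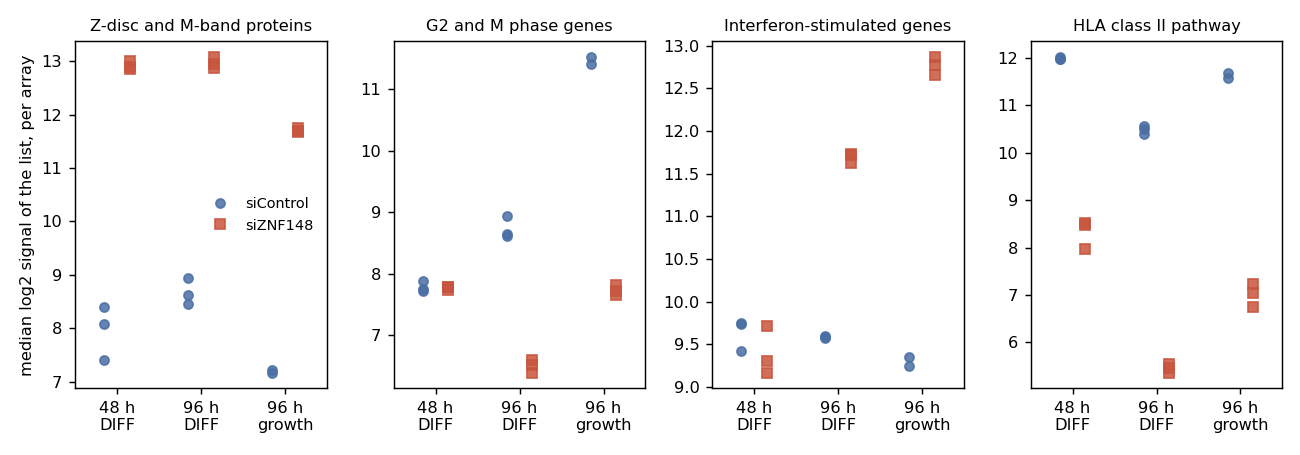
Median log2 signal of the genes of 4 lists on each array, 1 point per array, in the siControl and siZNF148 groups at 48 h in DIFF media, 96 h in DIFF media and 96 h in growth media. At 96 h in DIFF media the interferon-stimulated genes lay at 9.58 to 9.60 with siControl and 11.63 to 11.73 with siZNF148, and the G2 and M phase genes at 8.62 to 8.94 and 6.39 to 6.59.

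Matrix genes moved both ways. Of 41 tested collagens and matrix proteins 10 rose and 11 fell, beside 11.1% and 14.0% of all genes called higher and lower. CCN2, connective tissue growth factor, gave 7.601, 7.66 and 7.71 with siControl and 11.06, 10.91 and 11.24 with siZNF148 and rose by 3.42 (SE 0.146, adjusted p = 2.83e-10). COL15A1, a basement membrane collagen, was at least 12.5-fold higher (adjusted p = 1.7e-09). THBS2, thrombospondin 2, fell by 3.58 (SE 0.172, adjusted p = 8.58e-10) by its brightest probe and changed by -1.59 by its other one, and VCAN, versican, fell by 2.62 (SE 0.095, adjusted p = 6.53e-11). Matrix metalloproteinases and their inhibitors were split, 6 of 18 up and 6 down, beside the same shares of all genes. TIMP3, an inhibitor, rose by 4.59 (SE 0.131, adjusted p = 8.39e-12) and MMP9 by 3.58 (SE 0.171, adjusted p = 8.2e-10), while MMP2 fell by 2.78 (SE 0.135, adjusted p = 9.39e-10).

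Smooth muscle contractile genes rose in 7 of 13 tested and fell in 1, with a median of 1.13, beside 11.1% and 14.0% of all genes. ACTG2, the enteric gamma actin, had log2 signals of 5.95, 6.74 and 6.44 on the siControl arrays and 12.06, 11.92 and 12.17 on the siZNF148 arrays and rose by 5.67 (SE 0.161, adjusted p = 7.88e-12). MYH11, the smooth muscle myosin heavy chain, rose by 6.25 (SE 0.422, adjusted p = 2.47e-08) with 1 siControl array above background, or by 6.87 without siControl replicate 3. Atrophy ligases and FOXO factors rose in 5 of 10 tested and fell in 1, beside the same shares of all genes. TRIM63, the ligase MuRF1, rose by 3.05 (SE 0.103, adjusted p = 3.38e-11) and FOXO4 by 2.29 (SE 0.0722, adjusted p = 1.83e-11), and the lysosomal protease gene CTSL fell by 1.65 (SE 0.062, adjusted p = 8.89e-11).

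Of 25 cholesterol and fatty acid genes 5 rose, where 11.1% of all genes did, and none fell. MVD, an enzyme of cholesterol synthesis, rose by 1.07 (SE 0.0756, adjusted p = 3.9e-08), and its change was under 2-fold without siControl replicate 1 (0.987) and with normexp correction. The desaturases FADS1 and FADS2 rose by 1.35 (SE 0.0657, adjusted p = 9.58e-10) and 1.13 (SE 0.06, adjusted p = 2.2e-09). Small heat shock proteins and chaperones rose in 7 of 16 and fell in 3, where 11.1% and 14.0% of all genes did. HSPB7 and HSPB3, small heat shock proteins of muscle, rose by 5.36 (SE 0.243, adjusted p = 4.99e-10) and 1.69 (SE 0.0656, adjusted p = 1.2e-10), while the stress-inducible DNAJB1 and HSPA1B fell by 1.88 (SE 0.192, adjusted p = 1.46e-06) and 1.82 (SE 0.0898, adjusted p = 1.09e-09). HSPA1B has a near-identical copy, and its probe may read both. In the list of unfolded protein and amino acid stress 3 of 16 rose, TRIB3 by 2.61 (SE 0.122, adjusted p = 6.78e-10), ASNS by 1.60 (SE 0.0914, adjusted p = 4.7e-09) and XBP1 by 1.25 (SE 0.0623, adjusted p = 1.19e-09), and 2 fell, DDIT4 by 1.87 (SE 0.0513, adjusted p = 6.46e-12) and PSAT1 by 1.12 (SE 0.0898, adjusted p = 1.35e-07). Nothing is read from these counts beside 11.1% and 14.0% of all genes.

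The labelled cell type was checked against markers. All 10 skeletal muscle markers were above background in both groups, and their summed signal on the log2 scale was 19.79 to 19.92 with siControl and 20.84 to 20.87 with siZNF148. Of these 10 markers 4 rose, none fell and 6 were not called, with a median of 0.89 and a lowest change of -0.59. DES, desmin, rose by 1.13 (SE 0.0739, adjusted p = 1.8e-08), and CKM, MYH3 and NCAM1 rose as given above. Fibroblast markers fell in 4 of 7 tested and rose in 1, and their summed signal was 16.31 to 16.39 with siControl and 14.56 to 14.72 with siZNF148. THY1 fell by 3.53 (SE 0.14, adjusted p = 1.38e-10), FAP by 2.94 (SE 0.126, adjusted p = 2.81e-10) and DCN by 1.86 (SE 0.0795, adjusted p = 2.84e-10), PDPN was at least 3.52-fold lower (adjusted p = 5.24e-06) and PRRX1 rose by 1.20 (SE 0.12, adjusted p = 1.18e-06). TCF21 was below background on all 6 arrays. The fall of the fibroblast markers moved with the rise of the muscle lists and with the matrix genes above, and its part in those results was not tested.

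Markers of other cell types had lower summed signals than the skeletal muscle markers, but several were above background. Of 8 adipocyte markers 3 were above background on all siControl arrays and 2 on all siZNF148 arrays. For the 8 endothelial markers these counts were 6 and 4, and for the 8 neuron markers 5 and 7. Of the adipocyte markers ADIPOQ, LEP, LPL and PLIN1 were below background on all 6 arrays, and the summed signal was 9.92 to 10.02 with siControl and 10.39 to 10.57 with siZNF148. CEBPA, above background on 2 siZNF148 arrays, fell by 1.35 (SE 0.444, adjusted p = 0.0172), a call lost without siZNF148 replicate 2 (adjusted p = 0.0561) and with normexp correction. Endothelial markers summed to 9.03 to 9.19 and 8.18 to 8.44, with EMCN and TIE1 below background, and CLDN5 and PECAM1 fell by 1.86 (SE 0.11, adjusted p = 6.69e-09) and 3.07 (SE 0.559, adjusted p = 0.000296) while VWF rose by 1.20 (SE 0.235, adjusted p = 0.000562). The change of PECAM1 was -2.14 without siZNF148 replicate 2 and -3.70 without replicate 3, and it was not called by the methods' t-test after adjustment. VWF was not called with normexp correction or by its other probe (0.70). Leukocyte markers summed to 8.39 to 8.49 with siControl and 8.30 to 8.59 with siZNF148, and these ranges overlapped. Of 6 with a probe, 3 were above background on all arrays of each group. Another 3, CD3E and ITGAM among them, were below background on all 6 arrays. Whether these markers bear on the HLA class II genes was not tested. CD14 fell by 1.24 (SE 0.29, adjusted p = 0.00209), a call lost with normexp correction.

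Neuron markers summed to 12.77 to 12.97 with siControl and 12.92 to 13.22 with siZNF148, and GAP43 was below background on all 6 arrays. STMN2 was at least 23.6-fold higher (adjusted p = 2.71e-12) and MAP2 at least 4.18-fold higher (adjusted p = 1.12e-08). NEFL rose by 2.14 (SE 0.128, adjusted p = 7.29e-09), and SYT1 and SNAP25 fell by 2.31 (SE 0.132, adjusted p = 4.75e-09) and 1.17 (SE 0.226, adjusted p = 0.000472). The other tested probe of SYT1 changed by -0.82 and was not called, and the calls of MAP2 and SNAP25 were lost with normexp correction.

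The effect at 96 h in DIFF media was set against the effect of the same knockdown at 48 h in DIFF media (3 arrays per group) and at 96 h in growth media (2 siControl and 3 siZNF148 arrays), which share no array with it. All 3 comparisons used the same 15495 genes, picked by their signals on the 6 arrays at 96 h in DIFF media. Genes measured only in the other groups were not tested, and the counts below leave them out. At 48 h in DIFF media 2520 genes (16.3%) were called higher and 2904 (18.7%) lower, and at 96 h in growth media 2048 (13.2%) and 1984 (12.8%). Of the 1719 genes higher at 96 h in DIFF media, 1252 (72.8%) were also higher at 48 h, which is 49.7% of those called there, and 1235 (71.8%) were also higher in growth media, or 60.3% of those. Of the 2162 lower genes 1510 (69.8%) were also lower at 48 h, or 52.0% of those, and 1239 (57.3%) in growth media, or 62.4%. In all 3 comparisons 1017 genes were higher and 973 lower.

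The difference between the effects was tested in the same fit. The effect at 96 h in DIFF media was higher than that at 48 h for 1406 genes (9.07%) and lower for 1677 (10.8%). It was higher than the effect at 96 h in growth media for 877 genes (5.66%) and lower for 1443 (9.31%).

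Sarcomere genes rose less at 96 h in DIFF media than in the other comparisons. The median change of Z-disc and M-band genes was 2.66, against 4.72 at 48 h and 4.90 in growth media, and the effect was lower for 18 and 15 of the 33 genes. Troponins and tropomyosins had medians of 1.88, 3.58 and 4.28, with 8 of 12 genes lower in each test of a difference. In the list medians per array the Z-disc genes lay at 12.88 to 13.08 with siZNF148 at 96 h in DIFF media and at 12.85 to 13.01 at 48 h, while with siControl they lay at 8.45 to 8.93 and 7.401 to 8.40. For the troponins the siControl arrays lay at 14.66 to 14.85 at 96 h and 11.88 to 12.99 at 48 h, and the siZNF148 arrays at 17.34 to 17.38 and 16.82 to 16.92. These are medians of signals, whose gaps need not equal the median of the genes' changes. In both lists the siControl levels differed between these times by more than the siZNF148 levels did.

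CKM shows the same in a single gene. Its siControl mean was 14.30 at 96 h in DIFF media, 10.69 at 48 h and 9.77 in growth media, and its siZNF148 means were 17.91, 17.87 and 17.40. MYOG changed by 0.96 at 96 h in DIFF media, by 2.88 at 48 h and by 4.38 in growth media. Its siZNF148 means were 11.39, 11.07 and 11.32 and its siControl means 10.43, 8.18 and 6.94. MEF2C likewise had siControl means of 13.22, 11.08 and 10.51 and siZNF148 means of 15.21, 15.35 and 15.19.

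G2 and M phase genes differed from both. Their median was -2.19 at 96 h in DIFF media, -0.03 at 48 h and -4.15 in growth media. The effect was lower than at 48 h for 39 of the 53 genes and higher than in growth media for 41. Per array the list lay at 8.62 to 8.94 with siControl at 96 h in DIFF media, 7.71 to 7.88 at 48 h and 11.41 to 11.52 in growth media, and with siZNF148 at 6.39 to 6.59, 7.73 to 7.78 and 7.65 to 7.81. The histone genes had medians of 0.23, 0.01 and -1.26, and for 29 of 47 the effect was higher than in growth media.

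Interferon-stimulated genes rose at 96 h in both media and had a median of -0.17 at 48 h. For 31 of the 32 genes the effect was higher at 96 h in DIFF media than at 48 h, and for 18 it was lower than at 96 h in growth media, where the median was 3.81. IFIT1 changed by 4.78 here, -0.38 at 48 h and 5.35 in growth media. The HLA class II genes had medians of -4.86, -4.18 and -4.44. Their effect was lower than at 48 h for 5 of 13 genes and higher for 1, and it was lower than in growth media for 1 and higher for 1.

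**Figure D5:**
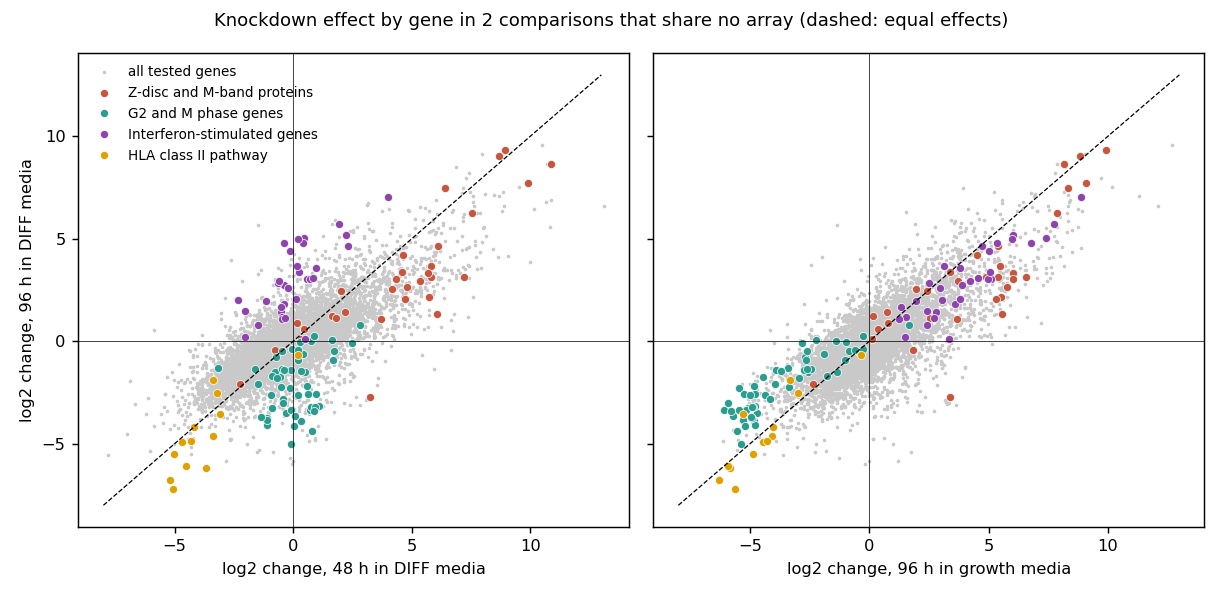
Log2 change after the knockdown at 96 h in DIFF media against that at 48 h in DIFF media and against that at 96 h in growth media, 1 point per tested gene, with genes of 4 lists coloured and a dashed line where both effects are equal. Interferon-stimulated genes sit high at 96 h and near 0 at 48 h (median 2.89 against -0.17), and G2 and M phase genes sit low at 96 h and near 0 at 48 h (median -2.19 against -0.03).

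Among the genes tested by their signals at 96 h in DIFF media, a set was called there and in neither of the other comparisons, 216 higher and 314 lower. For 47 and 75 of them the effect also differed from both others, while for the rest a difference was not shown. Among these 47 and 75, and named after their values were seen beside CELA2A and CELA2B, were CLDN1, a tight junction protein, which was not well above background on any siControl array and was at least 3.098-fold higher (adjusted p = 0.000111), a call lost with normexp correction, and MMP1, a collagenase, which rose by 2.60 (SE 0.164, adjusted p = 1.25e-08). PDGFB, a growth factor, fell by 3.27 (SE 0.396, adjusted p = 7.7e-06) and CASP9, an initiator caspase, by 2.62 (SE 0.0876, adjusted p = 3.13e-11). ACTG2 was called in all 3 comparisons but rose only here, against -1.48 at 48 h in DIFF media and -1.33 at 96 h in growth media.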

How the data were processed

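The study hybridised 29 samples of LHCN-M2 cells to one-colour Agilent arrays of 62976 spots, read with Agilent Feature Extraction 10.7.3.1. The deposited scanner files of the authors hold 1 processed signal intensity per spot, with the background already subtracted, and the authors also deposited quantile-normalized log2 values, used here as an alternative. Here control spots (2075 per array) and outlier spots were left out, spots of a probe were averaged, and the log2 intensities of all 29 arrays were quantile-normalized, as the study's methods describe. Groups came from the sample labels. A probe was tested where it was well above background on at least 3 of the 6 arrays at 96 h in DIFF media. The same probes were used for the effects at 48 h and in growth media. The linear model of limma 3.58.1 (R 4.3.3, the R package data.table, version 1.17.8) held 17 arrays in 6 groups (96 h and 48 h in DIFF media, 96 h in growth media), and calls needed more than 2-fold with a p, adjusted by Benjamini and Hochberg's method, under 0.05. Where several probes of a gene were tested, the brightest on average stands for it. Differences between effects were contrasts of the same fit. The fitting code was tested on simulated data.

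Of 58201 probes 31104 were named through their accessions in RefSeq's gene annotation of GRCh38.p14, giving 22439 genes, and promoter sequences came from the same source. The arrays' own build was not used, so no gene positions are printed beside those of the promoters. No sequence of the siRNAs was used here. The number of arrays, not read depth, limits the precision. Besides the regulators, the text names the 8 largest rises and falls, the 5 brightest genes measured in only 1 group in each direction, the 2 largest called changes in each direction per gene list (all called where at most 5 were) and the 5 largest differences between effects in each direction. Members of the lists, and the comparison itself, were chosen with earlier results of these data known. CCL20 and MYL1 lacked 1 array's value each after outlier spots were removed, and their fits used the remaining arrays. Some genes that these rules select are not reported here.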

Additional observations from a re-analysis of the deposited data

Results flagged for a closer look

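The effect of the knockdown at 96 h in DIFF media differed from that at 48 h in DIFF media for 1406 genes in the higher and 1677 in the lower direction, and from that at 96 h in growth media for 877 and 1443, by limma's test of the difference itself. These are the genes with the largest differences on the log2 scale, of which several were near background in some groups, so that the sizes are uncertain.

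Against 48 h, the effect was higher for ACTG2 (difference 7.15), CCDC85A (6.54), DAPL1 (6.42), IFIT1 (5.16) and CRB1 (5.12). It was lower for GADL1 (-7.32), NGFR (-7.08), SRL (-6.51), AIF1L (-6.27) and FOXS1 (-6.19), and, among genes named for other reasons, for ANKRD2 (-5.97), C1QL4 (-5.92), H1-5 (-3.85) and SCN4A (-2.57). ACTG2, CRB1, ANKRD2, GADL1, H1-5, C1QL4 and SCN4A were called in opposite directions at the 2 times.

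Against 96 h in growth media, the effect was higher for ACTG2 (7.01), MFSD6L (6.17), LGI1 (6.09), PI15 (4.80) and DAPL1 (4.72). It was lower for RGR (-7.18), KCNF1 (-7.04), C1QL4 (-6.76), CD24 (-6.36), LINC02532 (-6.33), ANKRD2 (-6.13), CDKN1C (-4.28), CLDN5 (-3.88) and SCN4A (-3.69). ANKRD2, C1QL4 and SCN4A thus fell at 96 h in DIFF media while they rose in both other comparisons, and CDKN1C, CLDN5, CD24, KCNF1, LINC02532 and RGR fell in DIFF media and rose in growth media at 96 h. The difference for MFSD6L was no longer called in the fit of the 11 arrays at 96 h (adjusted p = 0.0591).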

How the results depend on the processing

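ZNF148 stayed lower under every alternative run, with a log2 change between -2.81 and -2.22. Leaving out each array in turn gave 1702 to 1735 genes higher and 2061 to 2276 lower, 2928 to 3048 probes higher and 3541 to 3984 lower, differences from 48 h of 1363 to 1449 genes higher and 1588 to 1731 lower, and differences from growth media of 845 to 921 and 1384 to 1493. With normexp background correction 1349 genes fell, 1859 probes rose and 1850 fell, and 934 genes had a lower effect than in growth media. With probes required to be above background on all 6 arrays 2374 probes fell. Without a fold threshold 4587 genes were higher and 6164 lower, 7987 probes were higher and 10073 lower, the differences from 48 h were 3911 and 4549 genes, and those from growth media 2643 and 3600. The methods' t-test on the same values called 1675 genes higher and 2111 lower at its unadjusted threshold with the same fold, and 1652 and 2068 after Benjamini-Hochberg adjustment.

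The titles number the replicates without saying whether like numbers were paired. Deviations of same-numbered arrays from their group means correlated at -0.11, -0.10 and -0.00, and those of unlike numbers at -0.01 to 0.11. With 3 arrays per group these values cannot settle whether the samples were paired. With the number as a block 1678 genes were higher and 2123 lower, with ZNF148 at -2.74. The alternatives were run over 197 genes, those the naming rule selects and those named after their values were seen. Of 3891 alternative values 3843 kept the main fit's call or its lack of a call. A call was lost in 45 and gained in 3 (MYOG), and none that was called reversed. A gene that was not called could change sign and still count as kept, as MYOD1 did. Normexp correction ended the calls of CCDC85A, CCL20, CD14, CEBPA, CLDN1, COLQ, CPT1B, CRB1, CXCL6, IGFBP2, IL1B, MAP2, MVD, MYH10, PATZ1, RRM2, SCN4A, SNAP25 and VWF, 75th percentile scaling those of CDKN1C, CDKN2A, COL1A2 and MYH10, the fit of all 29 arrays those of CDKN1C, ERBB3, FOXS1 and GADL1, and the methods' t-test after adjustment those of CCDC85A, CIITA, MFSD6L, MYH10 and PECAM1, and that of MFSD6L also at its unadjusted threshold. Without a filter on dim probes the call of CCDC85A was lost. Leaving out 1 array ended the calls of CCDC85A (siControl replicate 1, adjusted p = 0.0632, or siZNF148 replicate 3, 0.113), MFSD6L (siControl replicate 1, adjusted p = 0.0592, siControl replicate 2, 0.0623, or siZNF148 replicate 3, 0.0833) and FOXS1 (siControl replicate 1, log2 change 0.975), beside those of MYH10, MVD and CEBPA given above. The causes of these changes and of the moved counts were not tested. The median of a list changed sign over the alternatives for the described ZNF148 targets (-0.06 to 0.26), ID genes and myostatin signaling (-0.03 to 0.45), CDK inhibitors (-0.10 to 0.09), metalloproteinases (-0.29 to 0.09), neuron markers (-0.08 to 0.93) and ribosomal proteins (-0.18 to 0.15). Normexp lowered the count of G2 and M phase genes that fell to 32 and of S phase genes to 9.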
